A study of Mus musculus with 18 samples.

Results

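Toll-like receptor transcripts were followed in mouse spleen through the 10 rows of a gene expression table of 19326 gene symbols that carry the names Tlr1, Tlr2, Tlr3, Tlr4, Tlr6, Tlr7, Tlr8, Tlr9, Tlr12 and Tlr13. Rows were taken by symbol alone. The 10 fall into 4 receptors of the cell surface (Tlr1, Tlr2, Tlr4 and Tlr6) and 6 receptors of endosomes (Tlr3, Tlr7, Tlr8, Tlr9, Tlr12 and Tlr13). The spleens came from ICR mice, an outbred stock, aged 10 weeks, in 6 groups of 3 RNA libraries. The control group carried no labelled treatment, and a second group received AOS, read here as alginate oligosaccharide, at 10 mg/kg. The other 4 groups were all on a high fat diet (HFD), either alone, with AOS at 10 mg/kg, or with FMT, read here as faecal microbiota transplantation. The FMT groups are labelled by their source, AOS at 10 mg/kg (AOS-FMT) or control (control-FMT). The study's stated question is the effect of FMT on a spleen damaged by the diet. The labels do not say which mouse gave which library, so the p-values measure the spread between these libraries, which may be in part technical.

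Toll-like receptors are membrane proteins of immune cells that bind molecules typical of microbes. Those at the cell surface recognise bacterial wall components, and those in endosomes recognise nucleic acids or proteins released from engulfed microbes. After binding, most recruit the adaptor Myd88, while Tlr3 uses Ticam1 and Tlr4 uses both. The signal then runs through kinases and ubiquitin ligases to NF-kB and interferon regulatory factors, which switch on cytokines and costimulatory molecules. In the spleen, B cells, dendritic cells and macrophages carry different sets of these receptors.

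Levels are given in FPKM, a unit that divides fragments by gene length and by sequencing depth. The unit of the deposited values was not stated and was read as FPKM. Comparisons of level between genes rest on that reading. The read depth behind each value is unknown. Column totals ran from 627964 to 831448 FPKM, and between 12221 and 12898 genes reached 1 FPKM in each library. Haemoglobin rows took 10.8% to 34.4% of a library's total. Their share was 34.4%, 27.1% and 21.5% in control replicates 1, 2 and 3 and 27.4%, 11% and 10.8% in the HFD replicates. Listed marker transcripts of B cells, T cells, erythroid cells and both macrophage types were present in all libraries, with 1 exception. Clec4f, on the red pulp macrophage list, was close to absent throughout, with at most 0.3 FPKM in any library and 0 in 5. Control replicates 1 and 2 stood apart by their neutrophil transcripts, whose 10 markers summed to 10567 and 2826 FPKM there and to at most 992 FPKM in every other library. In bulk RNA, fewer cells of a type and less RNA per cell cannot be told apart. All 10 receptors were among the 12969 genes tested, those that averaged 1 FPKM or more in any of the 6 groups.

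On the mouse genome GRCm38, Tlr1 (chr5:64924679-64933563) and Tlr6 (chr5:64952031-64960097) are neighbours on the minus strand with 18467 bases between them. Tlr8 (chrX:167242696-167264329) and Tlr7 (chrX:167304929-167330558) lie on the minus strand of the X chromosome, 40599 bases apart, and Tlr13 (chrX:106143204-106160493) on its plus strand. The others stand alone: Tlr2 at chr3:83836272-83841767, Tlr12 at chr4:128615443-128618619 and Tlr3 at chr8:45395665-45411080 on minus strands, and Tlr4 at chr4:66827584-66930284 and Tlr9 at chr9:106222598-106226883 on plus strands. Nearly all of each receptor is encoded by a single long exon. The largest exon held 100% of the coding sequence of Tlr1, Tlr2, Tlr6 and Tlr12, and at least 89.7% in the others, except Tlr3 with 68.3%. Tlr1 and Tlr6 were the only pair of 66 in the family with a shared stretch of 50 bases in their transcripts. The shared windows made up 13.6% of those of Tlr1 and 12.3% of those of Tlr6, and the longest identical run was 229 bases. Reads from there could have been given to either gene, so the levels of both are uncertain to that extent.

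The 250 bases before the start site are shown for Tlr12, Tlr9 and Tlr3, the receptors with the smallest p in a test of any difference among the 6 groups. The RefSeq promoter table (GRCm38.p6) holds windows for 8 of the 10 receptors, all but Tlr4 and Tlr7. Capitals mark matches, on either strand, to any of 5 motifs that were searched. The motif like an interferon-stimulated response element was GAAA repeated after 2 bases of any kind. The core of a site for PU.1, a transcription factor of myeloid and B cells, was searched as GAGGAA. For AP-1, a factor activated downstream of these receptors, the letters were TGANTCA. The NF-kB motif and the TATA box, TATAAA, completed the search, and none of the matches in the windows shown overlap. The windows lie at chr4:128618620-128618869 (minus strand) for Tlr12, chr9:106222348-106222597 (plus strand) for Tlr9 and chr8:45410381-45410630 (minus strand) for Tlr3, and are written 5′ to 3′ towards the gene.
Tlr12: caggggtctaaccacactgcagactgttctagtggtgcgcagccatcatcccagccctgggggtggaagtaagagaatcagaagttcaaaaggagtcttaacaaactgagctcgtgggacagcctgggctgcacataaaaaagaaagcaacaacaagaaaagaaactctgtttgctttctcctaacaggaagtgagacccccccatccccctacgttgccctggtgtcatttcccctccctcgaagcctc
Tlr9: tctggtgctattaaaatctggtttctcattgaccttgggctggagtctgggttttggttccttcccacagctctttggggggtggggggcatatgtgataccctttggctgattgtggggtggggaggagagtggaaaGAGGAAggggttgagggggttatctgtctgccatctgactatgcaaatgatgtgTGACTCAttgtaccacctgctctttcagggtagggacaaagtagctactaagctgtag
Tlr3: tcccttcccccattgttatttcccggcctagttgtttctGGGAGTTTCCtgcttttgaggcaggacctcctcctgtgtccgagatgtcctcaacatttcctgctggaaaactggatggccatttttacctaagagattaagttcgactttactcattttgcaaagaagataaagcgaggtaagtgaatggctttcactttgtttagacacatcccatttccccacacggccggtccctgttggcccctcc
The Tlr12 window held none of the 5 motifs. In the Tlr9 window the capitals are a PU.1 core starting 112 bases before the start site and an AP-1 match starting 58 bases before it. In the Tlr3 window they are an NF-kB match starting 211 bases before it. Of 32851 mouse promoter windows of this length, 23.25% held the PU.1 core, 6.75% the AP-1 motif, 7.25% the NF-kB motif, 12.37% the TATA box and 2.98% the interferon-type element. The last was found among the receptors in 1 of the 2 windows of Tlr6, as overlapping matches. The match positions describe letters and do not show that a factor binds there.

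With the values read as FPKM, Tlr1 was by far the most abundant receptor transcript, at 61.3 FPKM on average over the 18 libraries. It lay above the next receptor, Tlr7 at 15.4 FPKM, in 18 of 18 libraries. Tlr9 followed at 13.1 FPKM, Tlr6 at 9.80, Tlr2 at 6.45, Tlr3 at 6.18, Tlr13 at 5.14, Tlr4 at 4.13, Tlr12 at 3.98 and Tlr8 at 2.19. Tlr1 alone made up between 40.7% and 53.1% of the summed level of the 10 receptors. Several neighbours in this order did not differ beyond their spread. Tlr7 exceeded Tlr9 in only 12 of 18 libraries, Tlr2 exceeded Tlr3 in 11, and Tlr4 exceeded Tlr12 in 11, with overlapping ranges in every group for the first and the last of these pairs. Tlr9 exceeded Tlr6, Tlr6 exceeded Tlr2 and Tlr12 exceeded Tlr8 in all 18. The order was not the same in every group: in AOS-FMT, Tlr9 exceeded Tlr7 in 3 of 3 libraries.

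**Figure D1:**
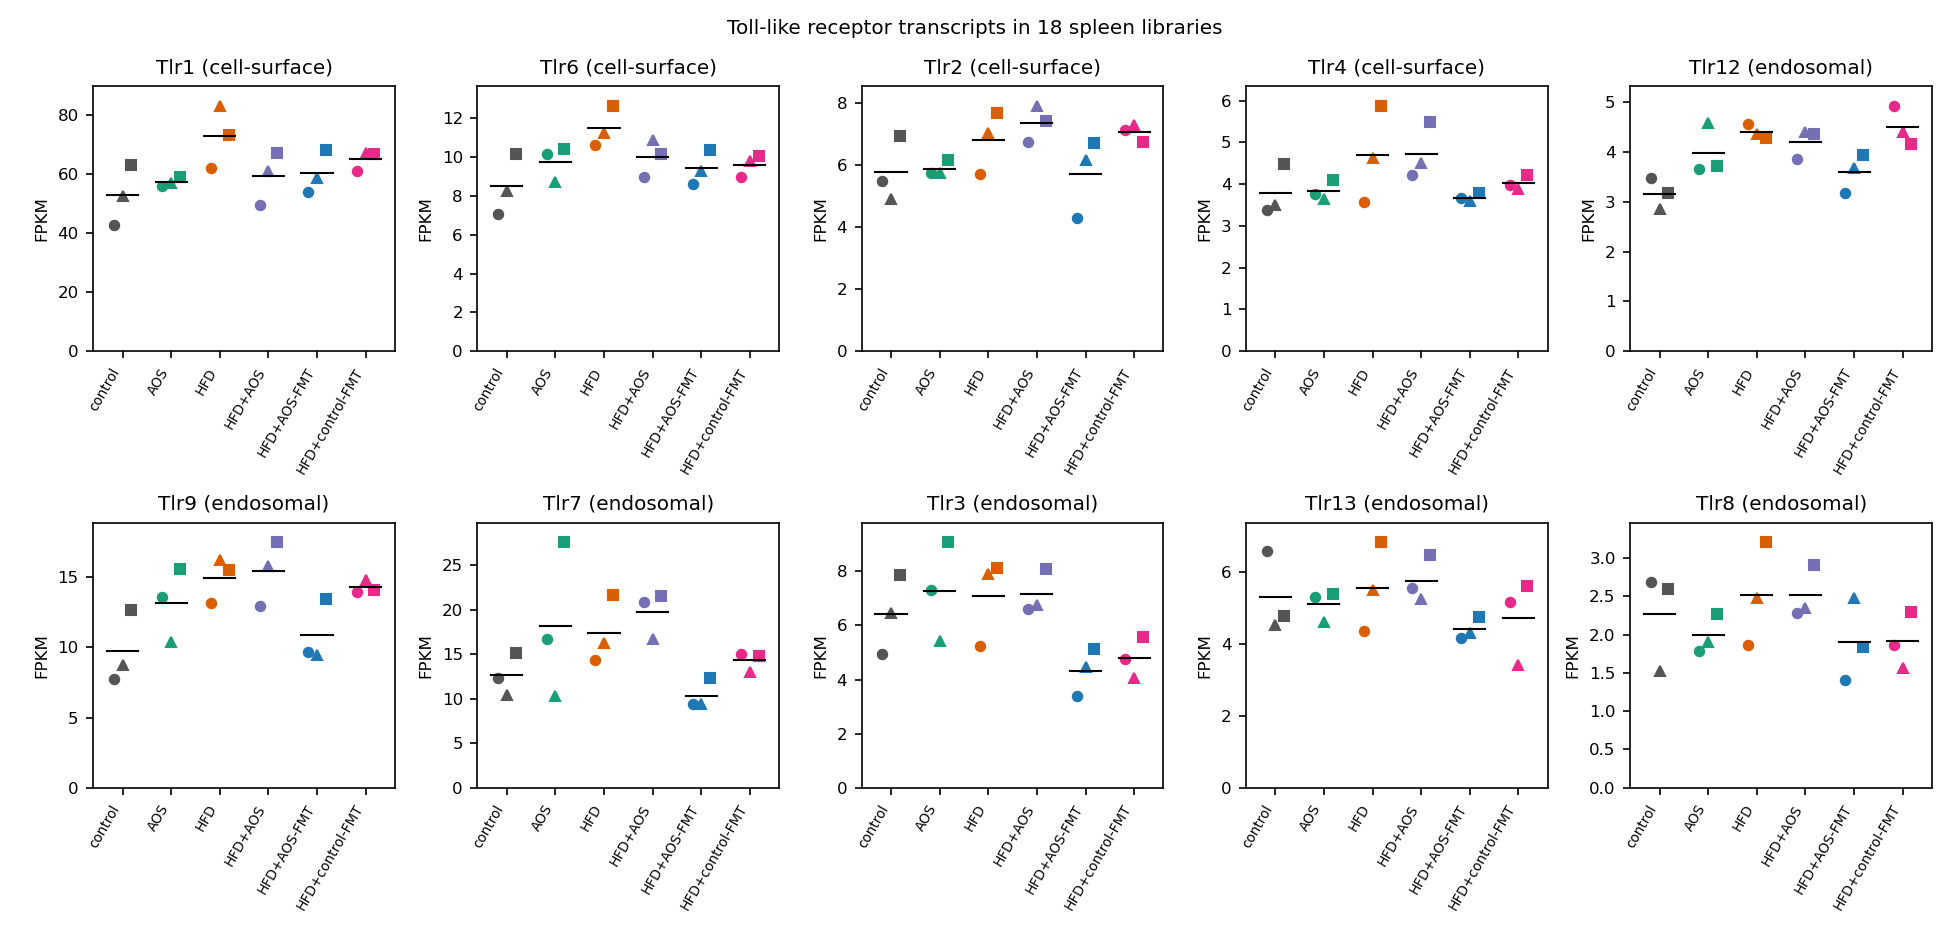
FPKM of each receptor by group, with 1 point per library (circle, triangle and square for replicates 1, 2 and 3) and a line at the group mean, each panel with its own axis from 0. Tlr12 lies between 2.85 and 3.47 in the controls and between 4.17 and 4.93 in control-FMT, and Tlr3 has its lowest means in the 2 FMT groups.

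Among the surface receptors, Tlr1 pairs with Tlr2 to bind bacterial lipoproteins. It stood at 42.61, 52.77 and 63.21 FPKM in control replicates 1, 2 and 3, at 55.88, 57.14 and 59.16 with AOS, and at 62.04, 83.22 and 73.25 on HFD. The groups with AOS on the diet held 49.53, 60.98 and 67.22, those with AOS-FMT 54, 58.7 and 68.13, and those with control-FMT 60.99, 67.28 and 66.93. The HFD values reach highest, but HFD replicate 1 lies just below control replicate 3, so both groups overlap. The AOS group lies below HFD and below control-FMT without overlap, and the controls overlap with all other groups. These pairs, and some named below for other receptors, were not among the comparisons made, so no share of all genes goes with them. In the comparisons made, 10.2% to 23.7% of all genes did not overlap, so such gaps were common.

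Tlr6, the other partner of Tlr2, measured 7.08, 8.25 and 10.14 FPKM in the controls, 10.18, 8.73 and 10.4 with AOS and 10.63, 11.26 and 12.65 on HFD. It stood at 8.95, 10.86 and 10.16 in HFD with AOS, at 8.63, 9.28 and 10.36 with AOS-FMT and at 8.98, 9.79 and 10.07 with control-FMT. The 3 HFD libraries lie above every library of the control, AOS and both FMT groups, and overlap only with HFD with AOS.

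Tlr2, the shared subunit of the lipoprotein receptors, was at 5.49, 4.91 and 6.96 FPKM in the controls, at 5.75, 5.74 and 6.19 with AOS and at 5.71, 7.04 and 7.68 on HFD. Its other values were 6.77, 7.93 and 7.44 in HFD with AOS, 4.29, 6.17 and 6.72 with AOS-FMT and 7.15, 7.32 and 6.76 with control-FMT. The AOS-FMT libraries lie below those of control-FMT without overlap, though the gap between their nearest values is narrow. Tlr4, which with its partner Ly96 (MD-2) binds lipopolysaccharide, was at 3.37, 3.51 and 4.49 FPKM in the controls, 3.76, 3.64 and 4.11 with AOS, 3.58, 4.63 and 5.88 on HFD, 4.22, 4.5 and 5.48 in HFD with AOS, 3.66, 3.59 and 3.79 with AOS-FMT and 3.98, 3.89 and 4.23 with control-FMT. Its HFD libraries spread most, with a coefficient of variation of 24.5% against 2.76% in AOS-FMT.

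Among the endosomal receptors, Tlr12, which binds profilin of protozoan parasites together with Tlr11, was at 3.47, 2.85 and 3.17 FPKM in the controls. It measured 3.65, 4.59 and 3.72 with AOS, 4.57, 4.37 and 4.28 on HFD, and 3.85, 4.41 and 4.36 in HFD with AOS. With AOS-FMT it stood at 3.17, 3.67 and 3.93, and with control-FMT at 4.93, 4.4 and 4.17. The controls were lower than every library of 4 of the other groups, and they overlapped only with AOS-FMT. AOS-FMT in turn lay below HFD and below control-FMT without overlap.

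Tlr9, the receptor for unmethylated CpG DNA, was at 7.72, 8.75 and 12.69 FPKM in the controls, 13.58, 10.38 and 15.62 with AOS and 13.19, 16.24 and 15.53 on HFD. It was at 12.99, 15.84 and 17.51 in HFD with AOS, 9.67, 9.49 and 13.47 with AOS-FMT and 13.96, 14.81 and 14.11 with control-FMT. The HFD, HFD with AOS and control-FMT libraries all lie above the 3 controls. Control replicate 3 is much closer to them than the other 2 controls.

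Tlr7, a receptor for single-stranded RNA, was at 12.31, 10.44 and 15.16 FPKM in the controls, 16.66, 10.3 and 27.57 with AOS and 14.36, 16.21 and 21.63 on HFD. It was at 20.89, 16.71 and 21.57 in HFD with AOS, 9.35, 9.35 and 12.35 with AOS-FMT and 15.04, 13.03 and 14.84 with control-FMT. AOS replicate 3 holds the highest value of the 18 and AOS replicate 2 lies below every control, a coefficient of variation of 48.1%. AOS-FMT lies below HFD, HFD with AOS and control-FMT without overlap.

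Tlr3, the receptor for double-stranded RNA, was at 4.96, 6.45 and 7.85 FPKM in the controls, 7.31, 5.44 and 9.08 with AOS and 5.25, 7.9 and 8.12 on HFD. It was at 6.6, 6.76 and 8.1 in HFD with AOS, 3.39, 4.45 and 5.12 with AOS-FMT and 4.75, 4.05 and 5.57 with control-FMT. The AOS-FMT libraries lie below the HFD libraries without overlap, whereas control-FMT replicate 3 exceeds HFD replicate 1.

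Tlr8, a relative of Tlr7 that senses single-stranded RNA in human cells, ranged from 1.41 FPKM in AOS-FMT replicate 1 to 3.21 FPKM in HFD replicate 3, and its groups overlapped in each of the 9 comparisons made. Tlr13, which recognises a stretch of bacterial ribosomal RNA, ranged from 3.41 FPKM in control-FMT replicate 2 to 6.82 FPKM in HFD replicate 3. Its highest control value was 6.57 FPKM, in replicate 1, and its groups too overlapped in each of the 9 comparisons. Neither gene had an unadjusted p under 0.05 in any of them.

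The first comparison asks what the diet did. On HFD all 10 receptors had a higher mean log2 value than in the controls, and none passed the test. The largest differences, as log2(FPKM + 1), were 0.60 ± 0.17 (SE) for Tlr9, 0.46 ± 0.14 for Tlr1, 0.43 ± 0.25 for Tlr7, 0.41 ± 0.11 for Tlr6 and 0.38 ± 0.10 for Tlr12. With limma and Benjamini-Hochberg adjustment over all genes, 4 fell short of the threshold of 0.05 by little, with adjusted p = 0.0503 for Tlr12, 0.0553 for Tlr6, 0.0622 for Tlr9 and 0.0678 for Tlr1. Of all genes tested 2.75% were called, and 0 of 10 receptors. The counts at an unadjusted p under 0.05 were 4 of 10 receptors and 28.6% of all genes. Groups did not overlap for 3 receptors, Tlr6, Tlr9 and Tlr12, all higher on HFD, against 19.4% of all genes in either direction and 14.0% as higher.

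All genes together leaned the same way in that comparison. Of all genes tested 68.5% had a difference above 0, and the median gene was at 0.10 (log2), against 0.31 for the median receptor. Scaling the libraries by median ratios moved the median gene to -0.00. Relative to the median gene, Tlr9 was higher by 0.50, Tlr1 by 0.36, Tlr7 by 0.33, Tlr6 by 0.31 and Tlr12 by 0.28, while Tlr13 was at -0.05. With median-ratio scaling the sign of Tlr13 turned, from 0.05 to -0.05, and the other 9 stayed above 0 (0.02 at the least, for Tlr3 and Tlr8). Single libraries decided whether these differences were called. Without control replicate 1, the library richest in neutrophil transcripts, the differences were 0.46 for Tlr9, 0.43 for Tlr12, 0.32 for Tlr1 and 0.30 for Tlr6, with adjusted p of 0.28, 0.21, 0.316 and 0.256. Without control replicate 2 the same genes were at 0.54, 0.32, 0.47 and 0.40, with 0.131, 0.109, 0.115 and 0.105. Without control replicate 3, the Tlr1, Tlr6, Tlr9 and Tlr12 differences had adjusted p = 0.0102, 0.00693, 0.00739 and 0.0225, without HFD replicate 1 those of Tlr1, Tlr6 and Tlr9 had 0.034, 0.0399 and 0.0433, and without HFD+AOS replicate 3 that of Tlr12 had 0.0478. Calls over all genes rose in the same fits, from 357 to 3818 of 13038, 1204 of 12981 and 585 of 12964.

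AOS without the diet gave smaller differences from the controls. Tlr9 was at 0.41 ± 0.17, Tlr7 at 0.40 ± 0.25 and Tlr12 at 0.26 ± 0.10, and the remaining 7 lay between -0.11 and 0.19. None of the 10 receptors was called by limma, nor was any of the other genes, a share called of 0%. Tlr9 and Tlr12 had an unadjusted p under 0.05, 2 receptors against 15.4% of all genes. Groups did not overlap for Tlr12 alone among the receptors, and for 16.8% of all genes. Under median-ratio scaling Tlr2 and Tlr4 turned from 0.03 and 0.02 to -0.02 and -0.03.

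Adding AOS to the diet moved no receptor past the test. Against HFD alone, Tlr1 was at -0.29 ± 0.14 and Tlr6 at -0.19 ± 0.11, while Tlr7 was at 0.18 ± 0.25 and Tlr2 at 0.11 ± 0.14. The other 6 lay between -0.06 and 0.06. By limma 0% of all genes were called, and at an unadjusted p under 0.05 there were 0 receptors and 15.0% of all genes, and groups overlapped for all 10 receptors but not for 16.0% of all genes. With the replicate number as a block, 33 of all genes and 0 receptors were called in this comparison. The interaction, that is the AOS effect on the diet minus the AOS effect without it, was -0.43 ± 0.20 for Tlr1, -0.38 ± 0.16 for Tlr6, -0.38 ± 0.25 for Tlr9 and -0.31 ± 0.14 for Tlr12. None was called, with a lowest adjusted p of 0.28, and 0% of all genes were called. Tlr1, Tlr6 and Tlr12 had an unadjusted p under 0.05, 3 receptors against 15.9% of all genes. Against the controls, HFD with AOS showed Tlr9 at 0.64 ± 0.17, Tlr7 at 0.61 ± 0.25, Tlr12 at 0.32 ± 0.10 and Tlr2 at 0.31 ± 0.14. These 4 were past an unadjusted p under 0.05, against 18.9% of all genes, and none was called by limma, against 2.09%. Groups did not overlap for Tlr7, Tlr9 and Tlr12, against 17.2% of all genes. The lowest adjusted p was 0.0705, for Tlr9, which was called without control replicate 3 (difference 0.83, adjusted p = 0.011). In that fit 1327 of 13038 genes were called.

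The AOS-FMT group had the lowest mean of the summed endosomal receptor level of the 6 groups. Its range of 31.15 to 41.46 FPKM overlapped with the controls (34.54 to 46.25), AOS (37.23 to 63.63) and control-FMT (41.27 to 46.58). Against HFD alone all 10 receptors were below 0 on the log2 scale, from -0.23 for Tlr2 to -0.69 ± 0.25 for Tlr7. Of the others, Tlr3 was at -0.60 ± 0.19, Tlr9 at -0.44 ± 0.17, Tlr6 at -0.26 ± 0.11 and Tlr12 at -0.24 ± 0.10. None was called by limma, where 0% of all genes were, and the lowest adjusted p was 0.263, for Tlr3. Tlr3, Tlr6, Tlr7, Tlr9 and Tlr12, 5 of 10, had an unadjusted p under 0.05 together with 13.6% of all genes. Groups did not overlap for Tlr3, Tlr6, Tlr7 and Tlr12, all lower with AOS-FMT, against 22.9% of all genes in either direction and 16.7% as lower. The median receptor was at -0.27 and the median gene at -0.07, with 32.5% of all genes above 0. All 10 stayed below 0 with median-ratio scaling, from -0.16 for Tlr2 to -0.62 for Tlr7.

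In the control-FMT group 8 of 10 receptors were below their HFD level, none past the test. Tlr3 was at -0.47 ± 0.19, Tlr8 at -0.26 ± 0.18, Tlr7 at -0.25 ± 0.25 and Tlr6 at -0.24 ± 0.11, while Tlr2, Tlr9 and Tlr12 lay between -0.06 and 0.06. None was called by limma, against 0.0154% of all genes. At an unadjusted p under 0.05 there was 1 receptor, Tlr3, against 4.63% of all genes, and groups did not overlap for Tlr6 alone, against 10.2%. AOS-FMT and HFD, and control-FMT and HFD, share the HFD libraries, so the values of the 2 comparisons are not independent. The same holds for all comparisons that share the control libraries or the AOS-FMT libraries.

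Set directly against control-FMT, AOS-FMT had all 10 receptors below 0, from -0.01 for Tlr8 to -0.44 ± 0.25 for Tlr7. Tlr9 was at -0.38 ± 0.17, Tlr2 at -0.28 ± 0.14 and Tlr12 at -0.26 ± 0.10. None was called by limma, against 0.00771% of all genes. Tlr9 and Tlr12 had an unadjusted p under 0.05, against 10.5% of all genes. Groups did not overlap for 5 receptors, Tlr2, Tlr4, Tlr7, Tlr9 and Tlr12, all lower with AOS-FMT, against 23.4% of all genes in either direction and 15.6% as lower. Of all genes 34.7% were above 0. With median-ratio scaling Tlr6 and Tlr8 turned to 0.02 each, so the shared direction covers only the other 8.

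Only 1 receptor in 1 comparison passed the test. Tlr12 rose in control-FMT against the controls by 0.40 ± 0.10 on the log2 scale, with adjusted p = 0.0355 by limma. In that comparison 5.13% of all genes were called, 3.19% as higher. The call ended with other choices: adjusted p was 0.0728 with median-ratio scaling, 0.0576 with quantile normalization, 0.062 without the haemoglobin rows and 0.233 with only the 2 groups fitted. It also ended without control replicate 1 (0.109), control replicate 2 (0.0811), control-FMT replicate 1 (0.153) or control-FMT replicate 2 (0.118), while the difference stayed between 0.33 and 0.50 under every alternative run. Tlr9 was at 0.54 ± 0.17 and Tlr1 at 0.31 ± 0.14 in the same comparison, neither called. They were called without control replicate 3 (adjusted p = 0.0117 and 0.0334, with 3104 of 13038 genes called in that fit) and with the replicate block (0.0284 and 0.0447, with 1468 of 12969). Those with an unadjusted p under 0.05 were these 3, against 26.9% of all genes, and groups did not overlap for Tlr9 and Tlr12, against 23.7%. AOS-FMT against the controls showed no called receptor and 0% of all genes called. Tlr3 was at -0.47 ± 0.19 there, the 1 receptor at an unadjusted p under 0.05, against 11.6% of all genes, and no receptor's groups were apart, against 12.9%.

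**Figure D2:**
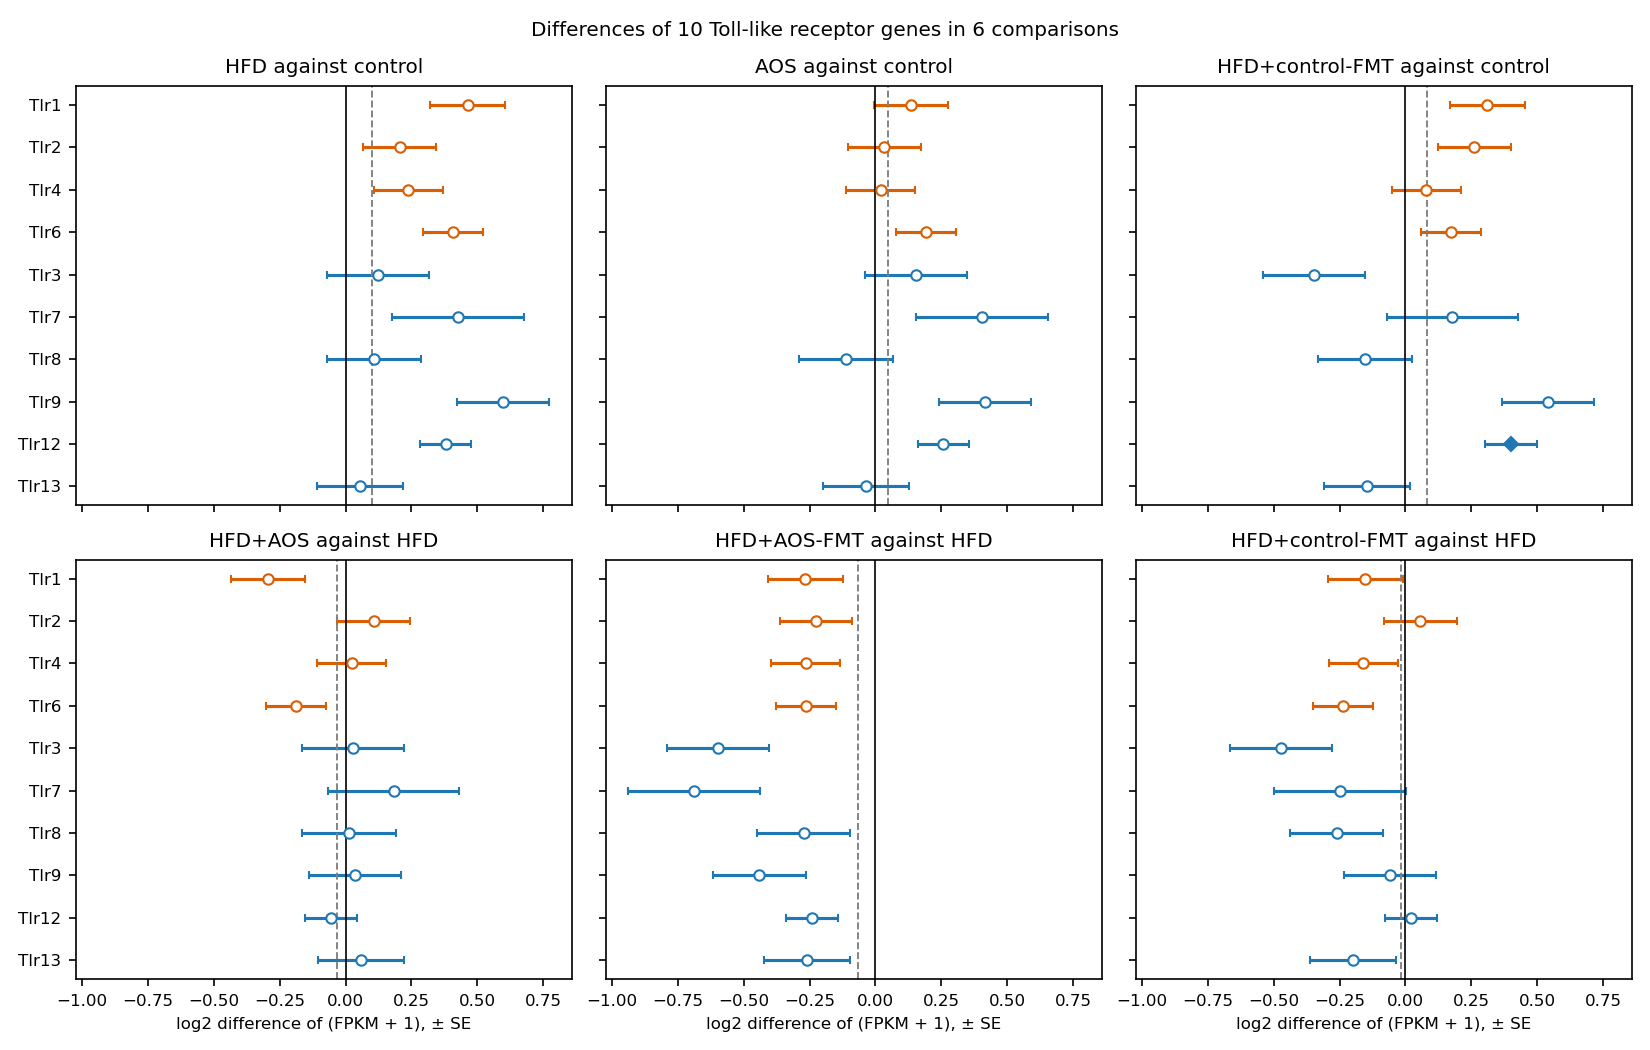
Log2 difference of (FPKM + 1) with its standard error for 10 receptors in 6 comparisons, surface receptors in orange and endosomal ones in blue. Open circles did not pass adjusted p 0.05, the filled diamond (Tlr12, control-FMT against control) did, and the dashed line is the median of all tested genes, which lies at 0.10 for HFD against control.

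A test of any difference among the 6 groups called no receptor, against 0.116% of all genes. At an unadjusted p under 0.05 there were 4, Tlr12, Tlr9, Tlr3 and Tlr7, all endosomal, with adjusted p of 0.117, 0.137, 0.147 and 0.194, against 22.0% of all genes. Without control replicate 3, Tlr9 was called in it, beside 1060 of 13038 genes, against 15 of 12969 with all libraries.

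The surface and endosomal classes did not keep a fixed distance. The mean log2(FPKM + 1) of the 4 surface genes minus that of the 6 endosomal genes was 0.76 ± 0.15 (SD, n = 3) in the controls, 0.67 ± 0.16 with AOS, 0.81 ± 0.03 on HFD and 0.67 ± 0.10 in HFD with AOS. It was 0.97 ± 0.02 with AOS-FMT and 0.89 ± 0.13 with control-FMT. The 3 AOS-FMT libraries, at 0.95 to 0.98, lie above every library of the 4 groups without a transplant, of which the highest was a control at 0.85. Control-FMT, at 0.80 to 1.04, overlaps with both. As summed FPKM, the endosomal receptors held 31.15 to 41.46 with AOS-FMT and 43.57 to 59.59 on HFD, and the surface receptors 70.58 to 89.0 and 81.96 to 106.15. The endosomal sum of the controls, 34.54 to 46.25, overlapped with both groups. The endosomal genes had unlike estimates in AOS-FMT against HFD, but differences between genes were not tested. Tlr3, Tlr7 and Tlr9 were at -0.60, -0.69 and -0.44 (log2; SE 0.19, 0.25 and 0.17). Tlr8, Tlr12 and Tlr13 were at -0.27, -0.24 and -0.26 (SE 0.18, 0.10 and 0.16), and the surface genes at -0.23 to -0.27. With a pseudocount of 0.1, Tlr3, Tlr7 and Tlr9 were at -0.695, -0.735 and -0.472. Tlr8, Tlr12 and Tlr13 were then at -0.382, -0.293 and -0.305, and the surface genes at -0.261 to -0.316. The nearness of Tlr8 to the surface genes thus depends on that choice. These class values describe genes chosen with earlier results known and carry no test.

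**Figure D3:**
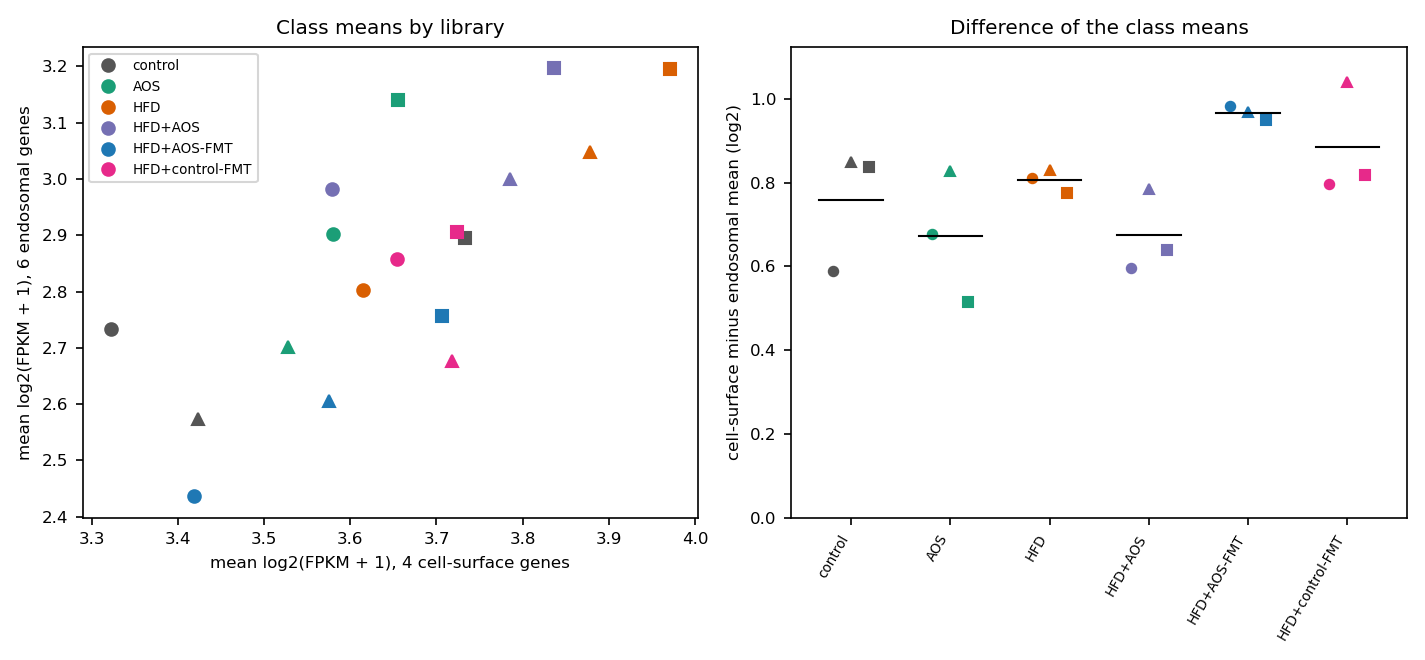
Left, mean log2(FPKM + 1) of the 4 surface genes (x axis) against that of the 6 endosomal genes (y axis), 1 point per library, coloured by group. Right, their difference by group with a line at the group mean, on which AOS-FMT lies at 0.95 to 0.98.

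Ratios between receptors within a library are the same whatever single factor scales that library, though not under quantile normalization. Tlr3 relative to Tlr1 was 0.07 ± 0.01 (SD, n = 3) in AOS-FMT and 0.07 ± 0.01 in control-FMT, and all 6 of these libraries, at most 0.0832, lay below the 12 others, at least 0.0846. Tlr3 relative to Tlr9 was 0.67 ± 0.06 in the controls, 0.55 ± 0.03 with AOS, 0.47 ± 0.06 on HFD, 0.47 ± 0.04 in HFD with AOS, 0.40 ± 0.06 with AOS-FMT and 0.34 ± 0.06 with control-FMT. The controls, at 0.619 or more, lay above all other libraries. Tlr9 relative to Tlr7 was 1.05 ± 0.04 with AOS-FMT and 0.77 ± 0.12 in the controls, without overlap. These ratios were picked among the receptors after the values had been seen and are descriptions.

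**Figure D4:**
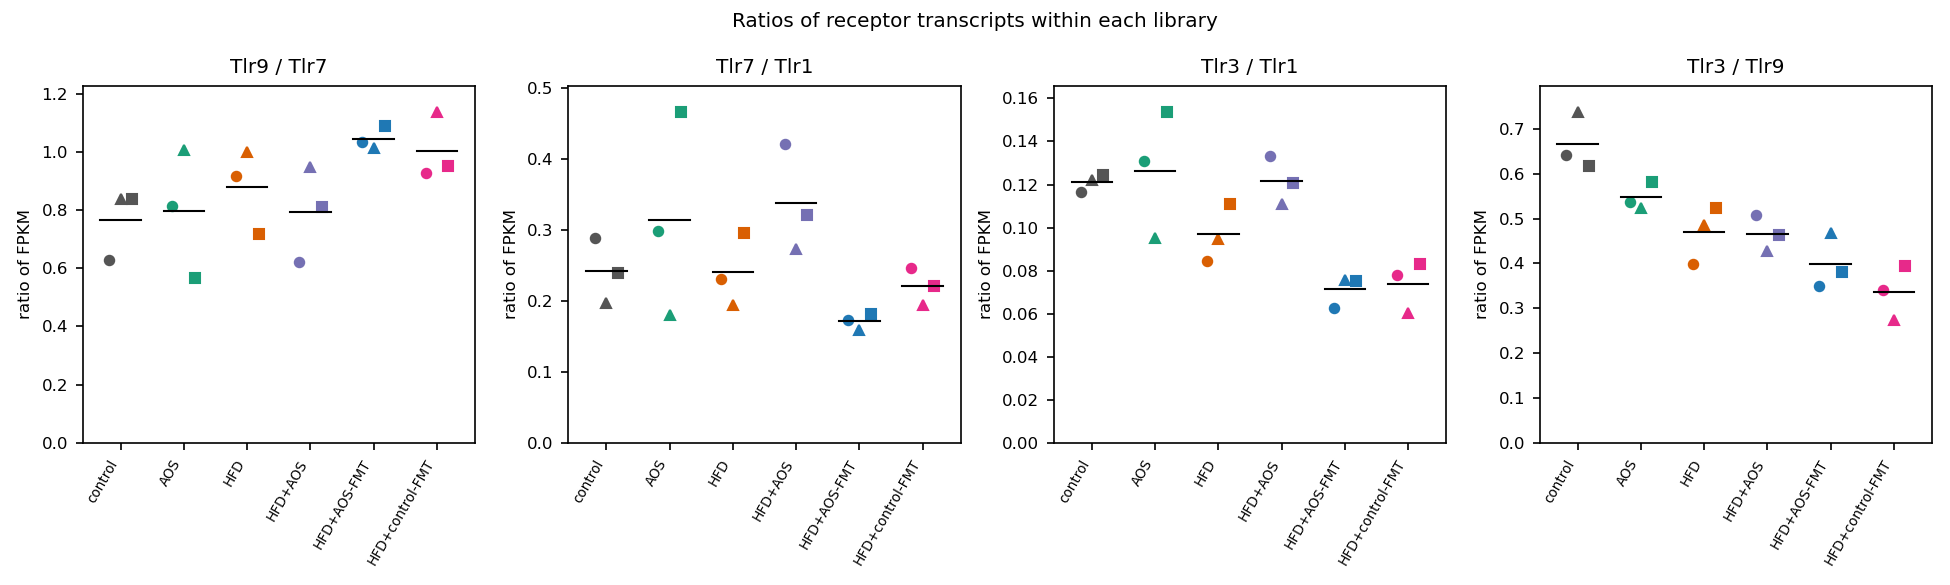
Ratio of FPKM between receptor pairs within each library, by group, with a line at the group mean and axes from 0. Tlr3 over Tlr1 is at most 0.0832 in the FMT libraries and at least 0.0846 elsewhere, and Tlr3 over Tlr9 is highest in the controls.

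Across the 18 libraries the receptors went together to different degrees. Over 45 pairs, Pearson's r of log2(FPKM + 1) was highest for Tlr1 with Tlr6 (0.83), Tlr6 with Tlr9 (0.82), Tlr3 with Tlr7 (0.78) and Tlr8 with Tlr13 (0.77). It was lowest for Tlr1 with Tlr13 (-0.01). The median was 0.66 over the 6 surface pairs, 0.54 over the 15 endosomal pairs and 0.54 over the 24 mixed pairs. All points share their library and its scaling, and Tlr1 and Tlr6 share part of their sequence.

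The genes most like each receptor over the 18 libraries, by Pearson's r, differed between the receptors. For Tlr1 they were Rbm5 (0.97), Ssh2 (0.96) and Xkrx (0.95), and for Tlr6 they were Il16 (0.92), Ahcyl2 (0.92) and the B cell chemokine receptor Cxcr5 (0.91). For Tlr9 they were Themis2 (0.95), Rnpepl1 (0.93) and the nucleotide hydrolase Samhd1 (0.93), and for Tlr7 the interferon-inducible Ifi207 (0.94), Tor3a (0.94) and Ifi213 (0.93). For Tlr3 they were Gemin5 (0.90), the NK cell receptor Ncr1 (0.89) and the macrophage lectin Siglec1 (0.88), both of which are also in the marker lists used below. For Tlr13 they were the phagocyte oxidase subunit Cybb (0.83), Csf2rb (0.82) and Igsf6 (0.81), and for Tlr8 the phagosomal metal transporter Slc11a1 (0.86), Pirb (0.85) and Atp8a1 (0.85). Tlr4 was most like Pds5b (0.95), Arfgef1 (0.93) and Spty2d1 (0.91), Tlr2 most like Alg10b (0.88), Cr1l (0.87) and Adap2 (0.86), and Tlr12 most like Snx4 (0.86), Kdsr (0.85) and Sgsh (0.84). With group means removed, the r of Tlr12 with its 3 genes dropped to between 0.54 and 0.64, while that of Tlr1 with its own stayed between 0.93 and 0.97.

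Levels of cell type markers moved with several of these results. Tlr1 had r = 0.94 with the mean of 10 B cell markers, Tlr6 0.79 and Tlr9 0.72. With the median of all tested genes Tlr1 had r = 0.84, Tlr6 0.81 and Tlr9 0.81, so Tlr6 and Tlr9 followed that median at least as closely. The B cell markers, 10 of 10 of which were above their control level on HFD and 1 of which was called, summed to 1671 to 2864 FPKM in the controls and 2718 to 3357 on HFD. Haemoglobin share went the other way, with r = -0.84 for Tlr1 -0.786 for Tlr9 and -0.785 for Tlr4. With haemoglobin rows removed from each library's total, the HFD differences were 0.56 for Tlr9, 0.42 for Tlr1, 0.37 for Tlr6 and 0.35 for Tlr12. Markers of plasmacytoid dendritic cells, in which Tlr7 and Tlr9 are known to be high, summed to 118 to 135 FPKM in the controls, 158 to 209 on HFD and 183 to 287 with control-FMT. Their sum was 271 to 353 FPKM in HFD with AOS, 162 to 180 with AOS-FMT and 165 to 319 with AOS. Bst2 and Klk1, with means of 116.5 and 33.71 FPKM over the 18 libraries, weighed most in these sums. By the mean log2 level of the 7 markers, AOS-FMT was at 3.97 and HFD at 3.95, with overlapping ranges. All 7 markers were above the controls with control-FMT, 5 of them called. Their r with Tlr9 and with Tlr12 was 0.64 each, but 0.36 with Tlr7. With group means removed it was 0.35 for Tlr9, 0.13 for Tlr12 and 0.34 for Tlr7. T cell markers were above the controls in 8 of 8 on HFD, 5 called, and in 8 of 8 with control-FMT, 7 called, and their sum was 183 to 310 FPKM in the controls against 411 to 434 and 361 to 477. Neutrophil markers were below the controls in 10 of 10 in both comparisons, with 0 called on HFD, where 9 had an unadjusted p under 0.05, and 4 called with control-FMT. The granule precursor markers were below in 10 of 10 in both as well, none called. Erythroid markers were below the controls in 8 of 8 on HFD and in 7 of 8 with control-FMT, 4 called in each. Of all genes, 68.5% were above the controls on HFD and 2.75% were called there. With control-FMT 5.13% of all genes were called, and the median gene was at 0.08. The part of these marker lists in the receptor differences was not tested.

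Tlr3 had r = 0.84 with 6 NK cell markers and 0.80 with 5 marginal zone macrophage markers, and Tlr8 and Tlr13 had 0.81 and 0.73 with the latter. Tlr4 had 0.84 with the NK list and 0.76 with the marginal zone list, and Tlr7 had 0.77 and 0.68. Other lists came as close for some receptors. With red pulp macrophage markers Tlr4 had 0.81 and Tlr8 0.79, and with monocyte markers Tlr13 had 0.69. With group means removed, Tlr13 had 0.80 with the monocyte list and 0.63 with the marginal zone list. With the median of all tested genes r was 0.73 for Tlr4, 0.50 for Tlr7, 0.48 for Tlr3, 0.38 for Tlr8 and 0.16 for Tlr13. The marginal zone markers summed to 58.69 to 93.71 FPKM with AOS-FMT, 58.56 to 103.02 with control-FMT and 62.62 to 188.91 on HFD. All 5 were lower than on HFD with AOS-FMT, none called and 2 at an unadjusted p under 0.05, and the NK markers were lower in 6 of 6, none called and 3 at an unadjusted p under 0.05. The NK markers summed to 55.09 to 70.83 FPKM with AOS-FMT, 56.04 to 61.93 with control-FMT and 66.36 to 123.12 on HFD. None of these 11 markers was at 0 in any library. Erythroid markers went the other way, with 8 of 8 higher in AOS-FMT than on HFD (median 0.85) and 8 of 8 higher than in control-FMT (median 0.68), none called and 5 at an unadjusted p under 0.05 in each. Of all genes, 32.5% were higher in AOS-FMT than on HFD, 0% were called and 13.6% had an unadjusted p under 0.05. For AOS-FMT against control-FMT these shares were 34.7%, 0.00771% and 10.5%. The haemoglobin share was 26.4%, 21.5% and 24.3% with AOS-FMT and 15.4%, 18.4% and 18.9% with control-FMT. With haemoglobin rows removed from the totals, Tlr3 was at -0.58 and Tlr7 at -0.67 in AOS-FMT against HFD. The part of these markers in the lower receptor values was not tested.

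**Figure D5:**
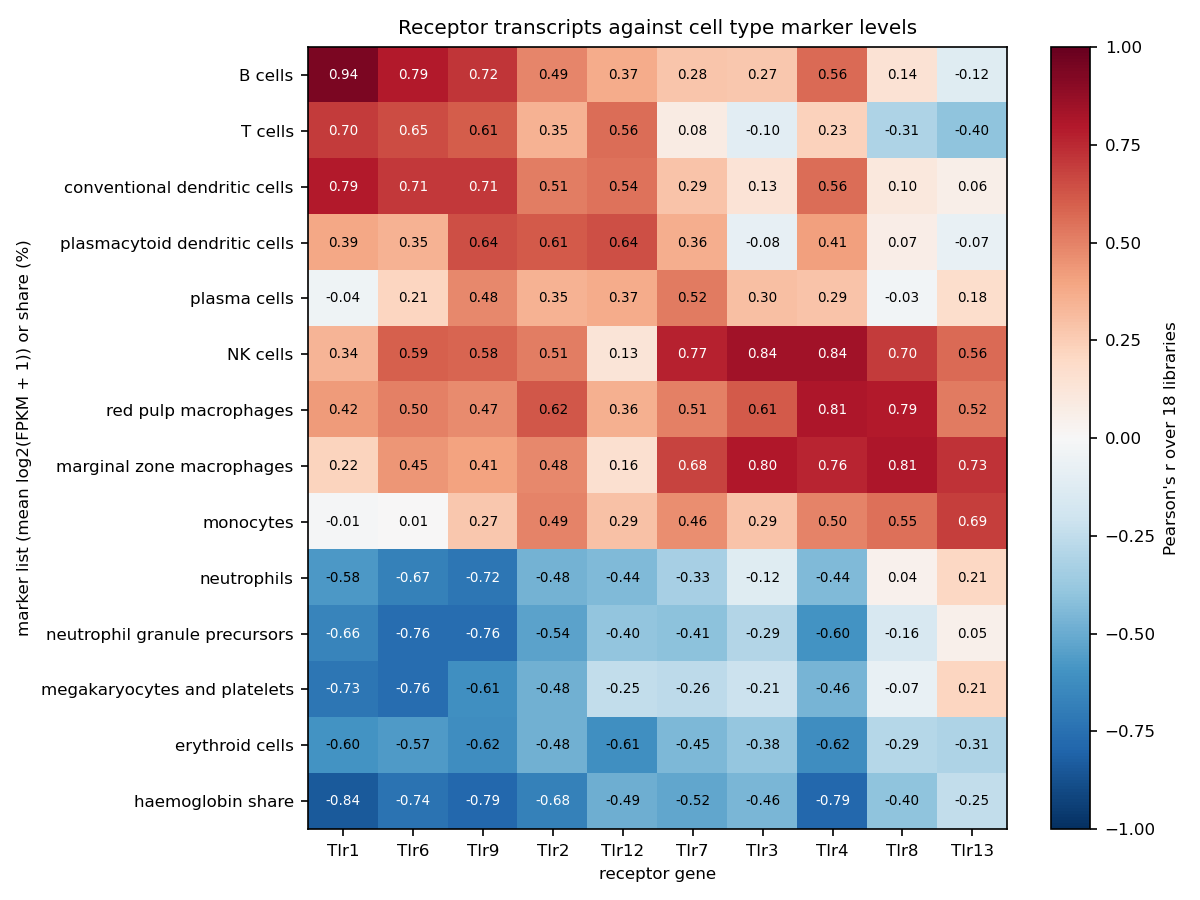
Pearson's r over the 18 libraries between each receptor (columns) and the mean log2 level of each marker list, or the haemoglobin share (rows), with red for positive and blue for negative values. Tlr1 with B cells (0.94) and Tlr3 with NK cells (0.84) are among the highest, and Tlr1 with haemoglobin share (-0.84) among the lowest.

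The rest of the pathway was followed through 79 genes in 8 lists, of which 74 were tested. On HFD, values above the controls were the rule in most lists: 12 of 13 response targets (median log2 difference 0.42), 10 of 11 inhibitors (0.35), 7 of 9 transcription factors (0.28), 14 of 16 kinases and ubiquitin ligases (0.20), 5 of 5 adaptors (0.18), 4 of 4 proteases (0.20) and 9 of 9 genes of folding and traffic (0.20), against 68.5% of all genes and a median of 0.10. The co-receptors were the exception, with 3 of 7 above 0. In AOS-FMT against HFD no pathway gene was called, as 0% of all genes were, and only 32.5% of all genes were above 0. Above 0 there were 1 of 13 response targets, 2 of 11 inhibitors, 2 of 9 transcription factors, 2 of 16 kinases and ubiquitin ligases, 1 of 5 adaptors, 0 of 4 proteases, 1 of 9 genes of folding and traffic and 2 of 7 co-receptors. On HFD against control 3 pathway genes were called, beside 2.75% of all genes. Among 13 tested response targets, Tnf rose from 5.58 ± 0.29 to 9.56 ± 1.04 FPKM (SD, n = 3; log2 difference 0.68) and the costimulatory receptor gene Cd40 from 28.5 ± 3.69 to 39.9 ± 1.91 FPKM (0.48), each with adjusted p = 0.0443. Among 16 kinases and ubiquitin ligases, Tab3, a partner of the kinase Tak1, fell from 10.6 ± 0.94 to 7.83 ± 0.94 FPKM (-0.40, adjusted p = 0.0464). None of the 3 was called with median-ratio scaling, without haemoglobin rows, with only the 2 groups fitted, or without control replicate 1, control replicate 2, HFD replicate 2 or HFD replicate 3, while 35 pathway genes were called without control replicate 3, beside 3818 of all 13038 genes tested, and 15 without HFD replicate 1, beside 1204 of 12981.

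In HFD with AOS against control, 3 response targets were called, beside 2.09% of all genes. The chemokine gene Ccl3 rose from 2.44 ± 0.05 to 5.53 ± 0.95 FPKM (log2 difference 0.91, adjusted p = 0.0453), Ccl5 from between 88.2 and 158 FPKM to between 219 and 239 FPKM (0.95, 0.0298), and Il12b, a subunit of interleukin-12, from 0.83 ± 0.31 to 2.36 ± 0.45 FPKM (0.88, 0.0467). With median-ratio scaling none of the pathway genes was called, nor without control replicate 1 or any of the HFD+AOS replicates, and 13 were without control replicate 3, beside 1327 of 13038 genes. In control-FMT against control 7 pathway genes were called, 6 of them higher: 2 response targets, 2 transcription factors and 2 inhibitors. The shares of all genes there were 5.13% called and 3.19% called as higher. Irf8, a transcription factor of dendritic and B cells, rose by 0.54 and the adhesion molecule gene Icam1 by 0.54, Nfkbia, an inhibitor of NF-kB, by 0.44, the RNase gene Zc3h12a by 0.38, Cd40 by 0.34 and Irf3 by 0.27, with adjusted p from 0.0303 to 0.0478. Tab3 was lower, by -0.38 (adjusted p = 0.0395), measured against the same control libraries as on HFD. Without control replicate 1, control-FMT replicate 1 or control-FMT replicate 2 none of the 7 was called. With median-ratio scaling 3 pathway genes were, beside 378 of 12975 genes, and without control replicate 3 there were 30, beside 3104 of 13038.

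The steps closest to the receptors gave no call in any comparison. Among 9 genes of receptor folding and traffic, 4 endosomal proteases, 5 tested adaptors and 7 co-receptors, those with the smallest p over the 6 groups were Lrrc59 and the chaperone gene Hsp90b1, the proteases Lgmn and Ctss, the adaptors Pik3ap1 and Ticam2, and Cd180 and its partner Ly86. The chaperone Hsp90b1, which folds most Toll-like receptors, stood at 304.5 ± 50.8 FPKM in the controls, 530.5 ± 82.6 with AOS, 418.3 ± 162.0 on HFD, between 431 and 674 in HFD with AOS, 352.3 ± 20.3 with AOS-FMT and 453.9 ± 142.0 with control-FMT. Lgmn, a protease of the endosome, ran from 50.3 ± 5.41 FPKM with AOS-FMT to 70.6 ± 5.8 with AOS. Cd180, a relative of Tlr4 on B cells, was lowest with AOS-FMT at 46.8 ± 2.66 FPKM and highest in HFD with AOS at 69.4 ± 7.5. Chosen for their role after the values were seen, Unc93b1, which carries the endosomal receptors from the endoplasmic reticulum, differed from control by 0.27 on HFD (adjusted p = 0.14), and Myd88 by 0.16 (0.451).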

How the data were processed

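RNA of 18 spleen samples was extracted with Trizol and a column kit and made into Illumina libraries, per the labels' protocols. Per the submitters' processing notes, the tools include Bowtie 0.12.2 and the genome build mm10. The authors deposited 1 table of values with 2 decimals. The unit of the deposited values was taken to be FPKM from their range and column totals. Neither the unit nor the counting program, annotation or depth was stated in the sources used here. Columns were matched to samples by group code and number. The 10 receptors and all gene lists were chosen with earlier results of these data known.

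Values were analysed as log2(FPKM + 1). The 12969 genes averaging 1 FPKM or more in any group were fitted in 1 model with limma 3.58.1 (trend and robust; statmod 1.5.0; R 4.3.3; 12 residual degrees of freedom), adjusted by Benjamini-Hochberg within each comparison and called under 0.05. The fit was tested on simulated data. Named genes were all receptors, from each pathway list the called genes with the 3 smallest p in a comparison, or else the 2 with the smallest p over all groups, and the 3 genes most like each receptor. Same-numbered libraries had residual correlations of 0.236, 0.268 and 0.191 between HFD+AOS and HFD. Among the groups of the interaction they were 0.493, 0.388 and 0.318 between HFD+AOS and AOS. In every other pair of groups compared the lowest of the 3 was 0.065 or less, though some pairs had all 3 above 0. Summaries used Python 3.11.15, numpy 2.4.6, pandas 2.3.3, scipy 1.17.1 and matplotlib 3.10.9. Gene models came from GENCODE on GRCm38. Alternatives tried were a pseudocount of 0.1, other filters and scalings, only the groups compared, the replicate number as a block, and each library left out.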

Additional observations from a re-analysis of the deposited data

How the results depend on the processing

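Over the 25 receptor differences with an unadjusted p under 0.05 and 668 alternatives of them, 0 changed sign, 8 lost the call, 20 gained it and 640 kept their side of the threshold. Many of the alternatives cannot change a difference, only its p. These are the fits without a library of a group not compared, the replicate block, the other filters and the fit of only the groups compared. The 25 were also picked by their p, so the unchanged signs say little. The count of receptors called for HFD against control, 0 as reported, was 1 with a pseudocount of 0.1 (Tlr12) and 1 when genes averaging under 5 FPKM in all groups were left out (Tlr6). Over all genes, 422 of 12969 were called with that pseudocount and 625 of 9949 with that filter. For control-FMT against control, 1 as reported, it was 0 under the 5 FPKM filter (which drops Tlr12), median-ratio scaling, quantile normalization, removal of haemoglobin and a fit of only the groups compared. Residual correlations of same-numbered libraries were 0.151, 0.038 and 0.36 between the controls and HFD. They were 0.025, 0.172 and 0.282 between the controls and HFD+AOS, and -0.137, 0.042 and 0.218 between the controls and control-FMT. With the replicate number as a block the counts were 4 for HFD against control, 1 for HFD+AOS against control and 3 for control-FMT against control. They were 1 for any difference among the 6 groups and 0 in the other comparisons, the interaction included. Over all genes the block called 1842, 405, 1468 and 210 in those 4, against 357, 271, 665 and 15 without it. The block changed no other call of a receptor. Leaving out 1 library at a time gave 0 to 4 receptors for HFD against control, 0 to 1 for HFD+AOS against control, 0 to 3 for control-FMT against control and 0 to 1 for the test over 6 groups. With a pseudocount of 0.1, chosen after seeing the data for this measure, surface minus endosomal was 0.875 on HFD and 1.072 with AOS-FMT. Pathway genes called ran from 0 to 35, 0 to 13 and 0 to 30 without 1 library in the 3 comparisons that had any, against 3, 3 and 7. Over all genes, HFD against control had 357 calls, none with median-ratio scaling and 3818 without control replicate 3. Apart from the filter, which tests fewer genes, the cause of these shifts was not tested. With unknown read depth no counting error can be given for any receptor, down to Tlr8 at 2.19 FPKM.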

Other observations

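Tlr5 and Tlr11, which lie outside the 10 genes chosen, were tested too. Tlr5, the flagellin receptor, ranged from 0.64 to 1.56 FPKM over the 18 libraries, and its groups overlapped in most comparisons. Tlr11, which pairs with Tlr12 on parasite profilin, was at 1.68, 2.05 and 2.87 FPKM in the controls, 2.11, 2.19 and 2.28 with AOS-FMT, and 3.21, 2.33 and 3.52 with control-FMT. AOS-FMT lay below control-FMT and below HFD without overlap, as Tlr12 did, with log2 differences of -0.32 ± 0.16 (SE, adjusted p = 0.492 by limma) and -0.30 ± 0.16 (0.403). Neither gene was called in any comparison.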
